A study of Mus musculus with 8 samples.

Results

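The genes described are the matrix metalloproteinases (Mmp), their tissue inhibitors (Timp), the ADAM and ADAMTS proteases and the ADAMTS-like (Adamtsl) proteins, measured in whole liver of WT mice and of mice with a hepatocyte deletion of Nus1 (N-LKO). They were taken by gene symbol from the count table, with Mmp12 left out, which gave 50 of its 19642 genes: 15 Mmp, 3 Timp, 13 Adam, 14 Adamts and 5 Adamtsl genes. In N-LKO mice Nus1, the gene for the Nogo-B receptor (NgBR), is removed by an albumin-Cre transgene that acts on loxP-flanked NgBR alleles. All mice were males of the C57BL6 background on a standard chow diet (CD), and n was 4 livers per genotype with 1 library each. The labels state the time on the diet both as 8 weeks and as 16 weeks, and give no age. Which Cre or loxP alleles the WT controls carried is not given in the sources used here. Counts were made on whole liver, so for a transcript made outside hepatocytes fewer or more cells of a type and less or more RNA per cell cannot be told apart. Timp1 was not analysed here.

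Matrix metalloproteinases are zinc proteases that cleave collagens, gelatin and other matrix and cell surface proteins, and most are made as inactive proenzymes. TIMPs bind their active sites, and TIMP2 also takes part in the activation of pro-MMP2 at the cell surface by the membrane-bound MMP14. ADAMs are membrane-anchored and release the outer parts of receptors and ligands, ADAMTS proteases are secreted and act on procollagens and proteoglycans, and ADAMTS-like proteins resemble ADAMTS proteins but lack the protease domain. In liver, much of this machinery is made by stellate cells, portal fibroblasts, endothelial cells and macrophages and is known for its part in the turnover of scar matrix.

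Total counts per liver were 15430519 to 18412201 in WT (median 17014592.5) and 14688404 to 18585412 in N-LKO (median 15132040). Nus1 itself was at 88.2 ± 4.14 CPM (counts scaled to equal library size, mean ± SD, n = 4) in WT and 36.7 ± 2.57 CPM in N-LKO livers, with no overlap (log2 fold change -1.26, edgeR adjusted p 3.06e-05). The hepatocyte markers summed to 72076 to 96235 CPM in WT and 73373 to 89923 CPM in N-LKO livers, and none of the 7 tested passed the test. The haemoglobin and erythroid genes summed to 553 CPM in the WT 3 liver and 295 CPM in the N-LKO 2 liver, against 58.0 to 124 CPM in the other 6 livers.

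Promoter sequence is shown for 4 members that stood higher in N-LKO livers and whose window ends before or at the annotated gene start. Each line is the 250 bases before the RefSeq transcription start in GRCm38.p6, read 5′ to 3′ on the gene's strand. Capitals mark a GC box (GGGCGG), the CCAAT box, an AP-1 element (TGANTCA) or a TATA box (TATAAA) on either strand, with overlapping matches merged. The windows are chr11:50601835-50602084 on the plus strand for Adamts2, chr2:27079129-27079378 on the plus strand for Adamtsl2, chr4:155653385-155653634 on the minus strand for Mmp23 and chr9:7691840-7692089 on the plus strand for Mmp7.
Adamts2: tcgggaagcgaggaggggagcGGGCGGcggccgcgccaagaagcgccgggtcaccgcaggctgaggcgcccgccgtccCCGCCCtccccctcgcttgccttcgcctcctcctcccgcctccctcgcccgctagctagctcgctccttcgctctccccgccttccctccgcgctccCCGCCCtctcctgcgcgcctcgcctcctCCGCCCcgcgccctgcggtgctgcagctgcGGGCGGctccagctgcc
Adamtsl2: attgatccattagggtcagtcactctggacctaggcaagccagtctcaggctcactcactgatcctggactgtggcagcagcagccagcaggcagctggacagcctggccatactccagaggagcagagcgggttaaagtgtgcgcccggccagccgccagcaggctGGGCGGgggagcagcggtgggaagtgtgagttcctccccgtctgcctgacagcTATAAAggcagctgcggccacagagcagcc
Mmp23: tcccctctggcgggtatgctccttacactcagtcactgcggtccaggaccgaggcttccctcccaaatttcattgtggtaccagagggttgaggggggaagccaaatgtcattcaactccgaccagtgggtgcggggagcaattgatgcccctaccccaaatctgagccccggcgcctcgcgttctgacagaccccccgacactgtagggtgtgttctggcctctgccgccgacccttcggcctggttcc
Mmp7: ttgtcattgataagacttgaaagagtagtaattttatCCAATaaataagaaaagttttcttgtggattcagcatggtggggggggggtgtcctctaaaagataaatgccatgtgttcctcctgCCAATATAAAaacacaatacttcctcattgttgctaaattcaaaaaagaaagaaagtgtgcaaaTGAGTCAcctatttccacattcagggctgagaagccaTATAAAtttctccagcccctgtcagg
The Adamts2 window held 5 GC boxes and had a GC content of 78.0%. The Adamtsl2 window held a TATA box whose first base was at -30 from the start and a GC box at -83. The Mmp23 window held none of these motifs. The Mmp7 window, with a GC content of 38.0%, held an AP-1 element at -63, TATA boxes at -123 and -26 and CCAAT boxes at -213 and -127.

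A RefSeq window was found for 32 of the 50 members, and the same letters were searched in the windows of 27025 genes. The GC box was in the window of 20 of the 32 members and of 35.4% of all genes, and in 4 of the 5 members with a window that passed the expression test below (Adamts2, Adamtsl2, Timp2 and Timp3). AP-1 letters were in 4 members and in 7.82% of all genes, and in 0 of those 5 members. The TATA box was in 5 members and 14.3% of all genes, the CCAAT box in 7 members and 37.5% of all genes. Letters of a TEAD site (GGAATG) were in 2 members and 14.4% of all genes, and those of a CAGA box (CAGACA) in 3 members and 19.3% of all genes. A match of letters is a description of the sequence only.

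The comparison of N-LKO with WT livers asked which matrix proteases and inhibitors differ when hepatocytes lack NgBR under chow. Both tested inhibitors, Timp2 and Timp3, rose, as did the gelatinase Mmp2, the membrane-anchored Mmp23, the procollagen protease Adamts2 and the secreted matrix protein Adamtsl2. The rises were between 0.80 and 1.99 on the log2 scale. No member fell past the test. The most abundant proteases of the set, among them Adam9, Adam10, Mmp14 and Mmp19, did not pass it, with log2 fold changes between 0.02 and 0.14.

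A gene was called when its adjusted p (edgeR quasi-likelihood test, Benjamini-Hochberg over all genes tested) was under 0.05. Of the 50 members, 26 (52.0%) passed the filter on low counts and 24 did not. Across all 14214 genes tested, 148 (1.04%) were called, 117 (0.823%) higher and 31 (0.218%) lower in N-LKO livers. Of the 26 tested members 6 (23.1%) were called higher and 0 lower. Of the 26, 10 had an unadjusted p under 0.05, against 12.8% of all genes tested. In 9 of the 26 (34.6%) all 4 N-LKO livers lay above all 4 WT livers, against 4.2% of all genes tested, and in 0 of 26 they lay below, against 3.32% (either direction, 7.52%). An exact permutation test of log2 CPM (two-sided) cannot give a p below 0.0286 with 4 against 4 livers. Each of these 9 members reached it, as genes without overlap must, so the permutation test adds nothing to that count. Mmp23 and Adamtsl1 passed the filter through the counts of their N-LKO group, so these counts describe the members that passed and not the family. In a fit with no filter, which holds all 50 members, 8 were called, against 0.865% of all genes.

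**Figure D1:**
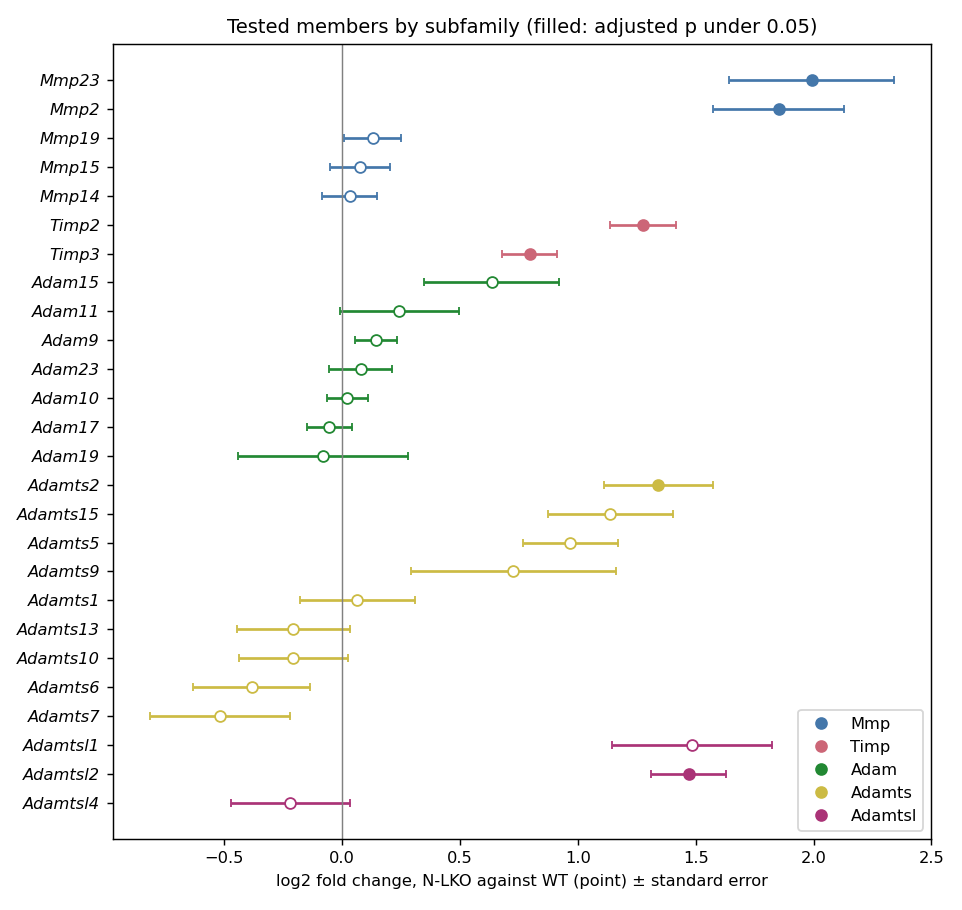
Each point is the log2 fold change of N-LKO against WT livers for a tested member, with its standard error as a bar, coloured by subfamily; filled points passed the test. The 6 filled points lie between 0.80 and 1.99, and the open Adam points lie between -0.08 and 0.64.

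The tissue inhibitors were the subfamily in which every tested gene rose. Timp2 (chr11:118301069-118355740, minus strand, GRCm38), an inhibitor of most MMPs, was at 9.56, 8.44, 10.2 and 11.2 CPM in the WT livers and at 19.7, 24.1, 30.1 and 21.8 CPM in the N-LKO livers. The lowest N-LKO liver stood well above the highest WT liver. The log2 fold change was 1.28 (SE 0.140, edgeR adjusted p 0.00162), from a mean of 9.85 ± 1.16 to 23.9 ± 4.46 CPM (SD, n = 4).

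Timp3 (chr10:86300372-86349506, plus strand), a matrix-bound inhibitor that also acts on ADAM17 and several ADAMTS proteases, was at 28.4, 34.6, 26.6 and 24.0 CPM in WT and at 45.3, 50.5, 55.7 and 45.6 CPM in N-LKO livers. Again the genotypes did not overlap. The log2 fold change was 0.80 (SE 0.117, adjusted p 0.0102), the smallest of the 6. Timp3 shares 1733 exon bases with Syn3 on the other strand, which the counting may not separate, and Syn3 itself was at 0.775 CPM in WT and 0.505 CPM in N-LKO livers.

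Timp4, which was not tested, had 1, 2, 0 and 0 counts in the WT livers and 3, 1, 5 and 0 in the N-LKO livers. At this depth no difference in Timp4 was detectable, since a library with 0 counts allows up to 3.

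Per kilobase of exon, a scale on which levels of different genes can be set side by side, Timp3 stood at 3.49 ± 0.558 and Timp2 at 2.53 ± 0.297 CPM per kb in WT livers. In N-LKO livers both were close to 6, at 6.05 ± 0.605 and 6.14 ± 1.15 CPM per kb. The ratio of Timp3 to Timp2 overlapped between the genotypes, at 1.02 to 1.96 in WT and 0.887 to 1.10 in N-LKO livers. The summed level of the 3 Timp genes was 6.02 ± 0.284 CPM per kb in WT and 12.2 ± 1.76 CPM per kb in N-LKO livers, without overlap.

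Among the 15 metalloproteinases, 5 were tested and 2 rose. Mmp2 (chr8:92827291-92853420, plus strand), the gelatinase that degrades type IV collagen and denatured collagens, was at 1.07, 1.00, 0.951 and 1.71 CPM in WT livers. In N-LKO livers it was at 2.72, 4.49, 5.84 and 4.28 CPM, all above the highest WT liver. The log2 fold change was 1.85 (SE 0.277, adjusted p 0.0109). Mmp2 was a low transcript in both genotypes, with 15 to 31 counts per WT liver and 48 to 88 per N-LKO liver.

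Mmp23 (chr4:155650655-155653384, minus strand), an MMP anchored in the membrane by its amino-terminal end, had 3, 6, 3 and 5 counts in the WT livers and 15, 19, 12 and 17 in the N-LKO livers. The genotypes did not overlap, at 0.250 ± 0.0966 CPM in WT and 1.01 ± 0.225 CPM in N-LKO livers. The Mmp23 log2 fold change of 1.99 (SE 0.351, adjusted p 0.0233) was the largest of the 6 and rested on the fewest counts. The call was lost when any liver other than WT 2 or N-LKO 1 was left out, with adjusted p up to 0.0836.

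The other 3 tested metalloproteinases did not pass the test. The membrane-type protease Mmp14, the activator of pro-MMP2, was at 41.8, 38.6, 36.9 and 37.4 CPM in WT and at 33.7, 47.9, 42.7 and 33.9 CPM in N-LKO livers (log2 fold change 0.03, SE 0.116, adjusted p 0.946). The N-LKO livers thus lay on both sides of the WT range. Mmp15, another membrane-type protease, had a log2 fold change of 0.07 (SE 0.127) from 12.2 ± 2.14 to 12.9 ± 0.769 CPM. Mmp19, a secreted protease of basement membrane proteins, went from 40.6 ± 5.33 to 44.4 ± 6.60 CPM (log2 fold change 0.13, SE 0.122), and shares 789 exon bases with Tmem198b on the other strand.

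The 10 metalloproteinases that were not tested averaged between 0.0739 CPM (Mmp25) and 0.813 CPM (Mmp7) over the 8 livers. Mmp7, named here after its values were seen, was the single untested member without overlap. Mmp7 (chr9:7692090-7699585, plus strand), or matrilysin, known from epithelia including bile ducts, had 1, 0, 4 and 4 counts in WT livers and 10, 16, 41 and 24 counts in N-LKO livers. That is 9 counts in all WT livers together and 91 in all N-LKO livers. Fitted without a filter, Mmp7 had a log2 fold change of 3.41 (SE 0.669, adjusted p 0.0360). It lies on chromosome 9 in a cluster with Mmp27, Mmp8, Mmp3 and Mmp13, none of which separated the genotypes, and shares 123 exon bases with AV064505 on the other strand.

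The collagenase Mmp13, also named after its values were seen, had 0, 0, 0 and 3 counts in WT and 0, 6, 8 and 1 in N-LKO livers. The genotypes overlapped (no-filter log2 fold change 2.29, SE 1.20, adjusted p 0.508). The collagenase Mmp8 had at most 4 counts in any liver, and the gelatinase Mmp9, known from neutrophils and macrophages, had 3 to 12 in WT and 2 to 10 in N-LKO livers. The stromelysin Mmp3 had at most 4 counts in any liver and Mmp11, known from stromal cells, 7 to 12.

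**Figure D2:**
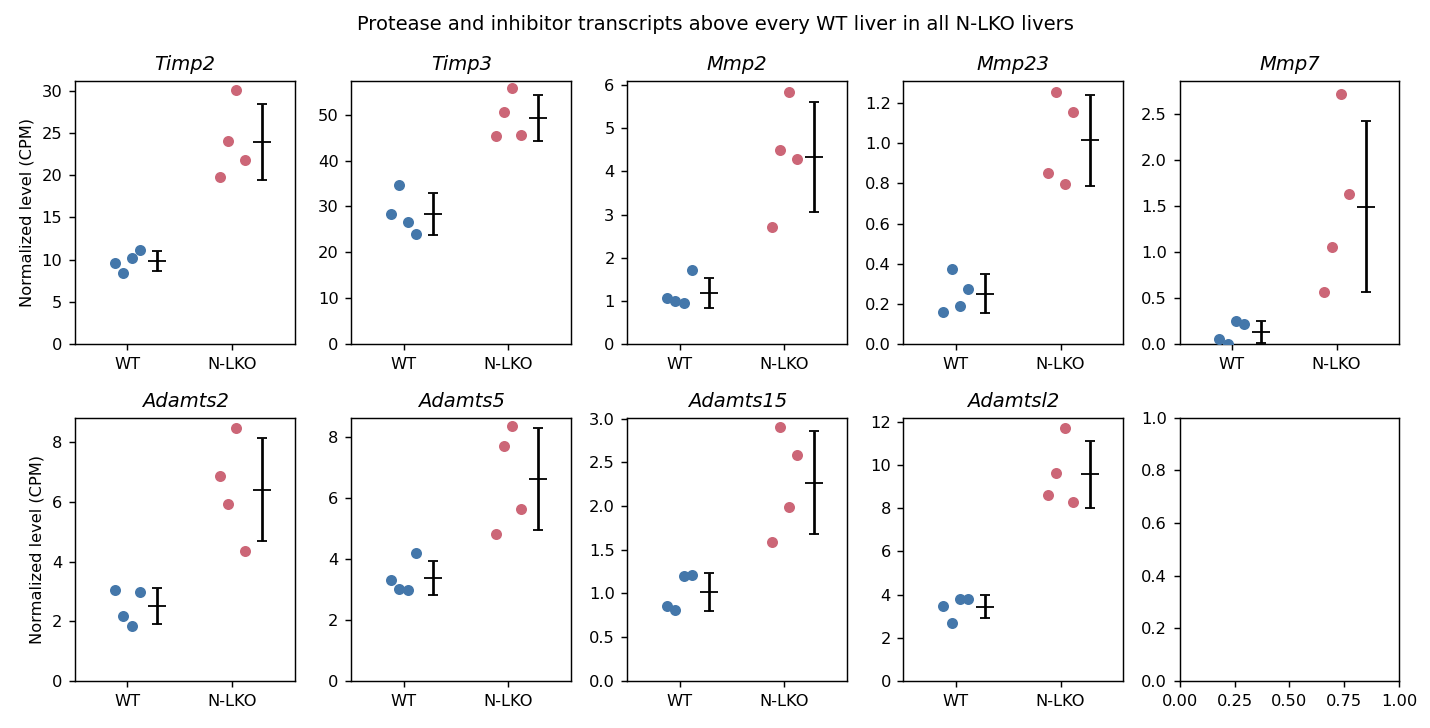
Each panel plots the CPM of a member in each WT and N-LKO liver (points), with the mean and SD beside them, on an axis that starts at 0. The members are Timp2, Timp3, Mmp2, Mmp23, Mmp7, Adamts2, Adamts5, Adamts15 and Adamtsl2, and the last panel is empty. In every panel with points the 4 N-LKO points lie above the 4 WT points, by the widest ratio of means in Mmp7 (0.132 against 1.49 CPM).

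None of the 7 tested ADAMs, out of 13, passed the test. Adam9, a widely expressed sheddase, was the most abundant member of the whole set at 66.8 ± 5.75 CPM in WT and 73.7 ± 6.81 CPM in N-LKO livers (log2 fold change 0.14, SE 0.0890, adjusted p 0.554). Adam10, the main alpha-secretase and Notch sheddase, was at 40.5 ± 2.33 and 41.1 ± 4.24 CPM (log2 fold change 0.02, SE 0.0865). Adam23, a member without protease activity known from neurons, was at 21.8 ± 3.79 and 23.0 ± 3.18 CPM (log2 fold change 0.08, SE 0.134). In all 3 genes the WT and N-LKO livers overlapped.

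Adam17, the sheddase of TNF and of several EGF receptor ligands, is named outside the rule, after its values were seen, because Timp3 inhibits it. It was at 16.0, 16.9, 16.9 and 18.2 CPM in WT and 14.1, 16.2, 17.5 and 17.8 CPM in N-LKO livers (log2 fold change -0.05, SE 0.0948, adjusted p 0.868). Adam15 had the largest difference of the tested ADAMs, from 1.00 ± 0.399 to 1.55 ± 0.202 CPM, with overlapping livers (log2 fold change 0.64, SE 0.286, adjusted p 0.389). Adam15 shares 1263 exon bases with 4731419I09Rik on the other strand, which the counting may not separate. The 6 ADAMs that were not tested averaged between 0.169 CPM (Adam8) and 0.503 CPM (Adam4), with at most 14 counts in any liver. They include Adam2, known from sperm, at 1 to 6 counts in WT and 4 to 8 in N-LKO livers.

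Of the 14 ADAMTS genes 9 were tested and 1 rose. Adamts2 (chr11:50602084-50807573, plus strand), the protease that removes the amino-terminal propeptide of fibrillar procollagens, was at 3.05, 2.19, 1.84 and 2.98 CPM in WT livers and at 6.86, 5.94, 8.49 and 4.35 CPM in N-LKO livers. No N-LKO liver reached down to the WT range. The log2 fold change was 1.34 (SE 0.232, adjusted p 0.0214), and the call was lost with the replicate number as a block (adjusted p 0.0695) and without WT 2, WT 3, WT 4, N-LKO 1 or N-LKO 3 (up to 0.0701). Adamts3 and Adamts14, the other procollagen N-propeptidases, had at most 3 and 7 counts in any liver and were not tested.

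Among the 6 proteoglycan-cleaving ADAMTS genes, 4 were tested and none passed, and 2 separated the genotypes. Adamts5, an aggrecanase, was at 3.31, 3.00, 2.98 and 4.19 CPM in WT and 4.82, 7.72, 8.36 and 5.64 CPM in N-LKO livers (log2 fold change 0.97, SE 0.202, adjusted p 0.0535). Adamts15, which cleaves versican and aggrecan, was at 0.855, 0.813, 1.20 and 1.21 CPM in WT and 1.59, 2.90, 1.99 and 2.58 CPM in N-LKO livers (log2 fold change 1.14, SE 0.265, adjusted p 0.0815). Adamts5 lay just outside the threshold and Adamts15 further from it. Both were called by DESeq2 (adjusted p 0.00203 for Adamts5 and 0.0195 for Adamts15), which called 371 genes against 148 in the reported fit. Adamts5 was called in 3 of the 8 other settings with all mice and in 1 of the 8 fits with 1 mouse left out. For Adamts15 these counts were 1 and 0.

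Adamts1, the most abundant ADAMTS gene in these livers and the neighbour of Adamts5 on chromosome 16, was at 12.6, 11.4, 15.9 and 15.7 CPM in WT livers. Its N-LKO values of 9.47, 23.4, 11.7 and 13.7 CPM spread on both sides of them (log2 fold change 0.06, SE 0.243). Adamts9 was at 1.02 ± 0.614 and 1.70 ± 0.709 CPM, with overlap between the genotypes, and shares 1381 exon bases with A730049H05Rik on the other strand. Adamts8, which lies beside Adamts15 on chromosome 9, had at most 3 counts in any liver.

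The remaining 4 tested ADAMTS genes had negative log2 fold changes that did not pass the test. These were -0.52 for Adamts7 (SE 0.297, adjusted p 0.515), -0.38 for Adamts6, -0.21 for Adamts10 and -0.21 for Adamts13, the von Willebrand factor protease that stellate cells make. Adamts13 was at 1.36 ± 0.262 CPM in WT and 1.18 ± 0.173 CPM in N-LKO livers. The 5 untested ADAMTS genes averaged between 0.0781 CPM (Adamts8) and 0.677 CPM (Adamts12).

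Adamtsl2 (chr2:27079379-27108981, plus strand), a secreted glycoprotein that binds fibrillin and the latent TGF-beta binding protein, gave together with Timp2 the lowest adjusted p of the set. It was at 3.47, 2.69, 3.80 and 3.81 CPM in WT and at 8.62, 9.64, 11.7 and 8.28 CPM in N-LKO livers. The groups stood far apart relative to their SDs of 0.527 and 1.56 CPM. The log2 fold change was 1.47 (SE 0.159, adjusted p 0.00162).

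Adamtsl1 had a like log2 fold change of 1.48 but on fewer counts, 7, 5, 8 and 4 in WT and 13, 20, 16 and 13 in N-LKO livers. It did not pass the test (SE 0.340, adjusted p 0.0764), although the livers did not overlap. Adamtsl4, which binds fibrillin microfibrils, was at 0.936 ± 0.115 and 0.804 ± 0.136 CPM (log2 fold change -0.22, SE 0.252). Adamtsl3 and Adamtsl5 had at most 7 counts in any liver and were not tested.

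By subfamily, the median log2 fold change of the tested genes was 1.04 for the 2 Timp, 1.47 for the 3 Adamtsl, 0.13 for the 5 Mmp, 0.08 for the 7 Adam and 0.06 for the 9 Adamts genes. The median over all genes tested was -0.0033. Over every member, from the fit without a filter, the medians were 1.27 for Timp, 0.11 for Adamtsl, 0.33 for Mmp, 0.13 for Adam and 0.14 for Adamts, with -0.013 over all genes. The Adamtsl median thus rested on which genes passed the filter. Of all 50 members 35 had a log2 fold change above 0 in that fit, against 9374 of 19642 genes.

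**Figure D3:**
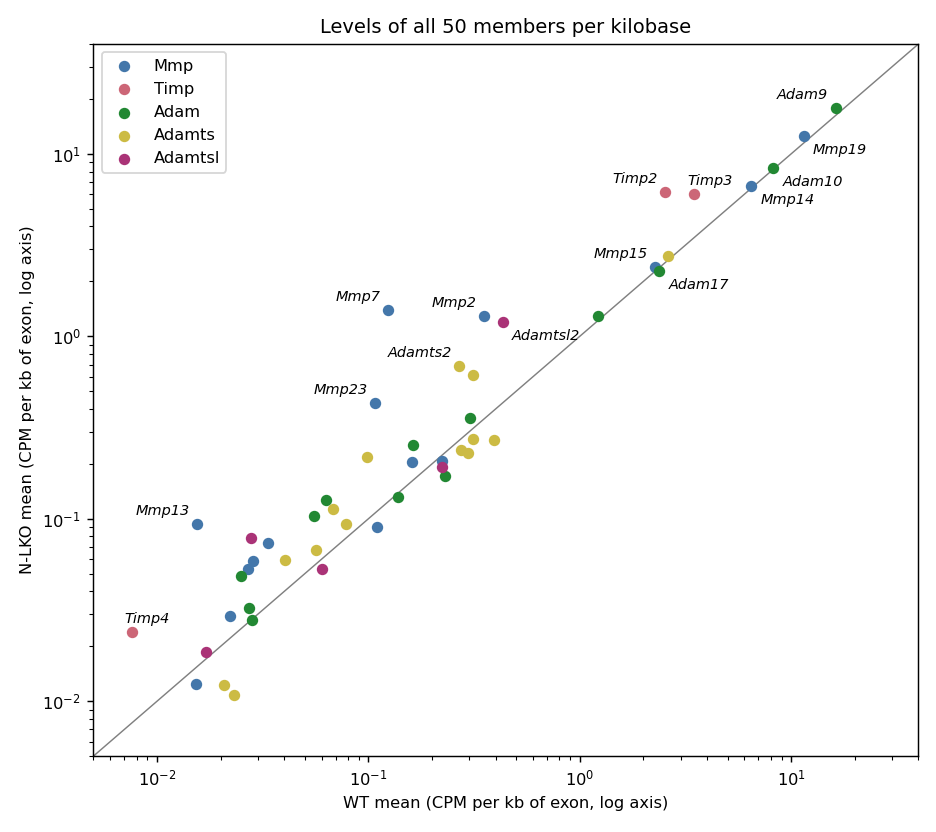
Each point is a member, placed by its mean CPM per kb of exon in WT (horizontal) and N-LKO livers (vertical) on log axes, coloured by subfamily, with a line of equal levels. Adam9, Mmp19, Adam10 and Mmp14 lie at the top of the range on the line, while Timp2, Timp3, Mmp2, Mmp7, Mmp23, Adamts2 and Adamtsl2 lie above it.

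Per kilobase of exon, the highest members in WT livers were Adam9 (16.2 CPM per kb), Mmp19 (11.5), Adam10 (8.24) and Mmp14 (6.49 ± 0.368). Timp3 followed at 3.49 and Adamts1, Timp2, Adam17 and Mmp15 lay between 2.27 and 2.62 CPM per kb, with SDs of 0.128 to 0.420. In N-LKO livers Timp2 and Timp3 stood beside Mmp14 (6.64 ± 1.17 CPM per kb), and the 3 did not differ beyond their SDs. Mmp2 and Adamtsl2, at 0.351 and 0.431 CPM per kb in WT livers, reached 1.28 and 1.20 CPM per kb in N-LKO livers, close to Adam23 (1.29).

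Ratios within a liver, given as a description, set the inhibitors against the proteases. Timp2 over Mmp14, per kb, was 0.350, 0.335, 0.423 and 0.458 in WT and 0.896, 0.770, 1.08 and 0.982 in N-LKO livers. Timp3 over Adam17 was 1.47 ± 0.271 in WT and 2.65 ± 0.270 in N-LKO livers, without overlap. Timp2 over Mmp2 was 7.50 ± 1.49 in WT and 4.95 ± 0.891 in N-LKO livers, with overlap. The summed Timp level over the summed Mmp level was 0.282 ± 0.0331 in WT and 0.478 ± 0.0611 in N-LKO livers, again without overlap. The summed Mmp level itself was 21.5 ± 1.59 CPM per kb in WT and 25.5 ± 1.58 CPM per kb in N-LKO livers, also without overlap. Mmp12 and Timp1 are in neither sum. The Timp sum is nearly all Timp2 and Timp3, so the summed ratio restates their calls and does not describe the whole families. These are ratios of transcripts and not of proteins or activity.

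Among the N-LKO livers, N-LKO 3 had the highest value in 5 of the 6 called members, and N-LKO 2 in the other, Mmp23. N-LKO 3 also had the highest value in 7 of the 10 fibroblast and matrix markers and in 60 of the 117 genes called higher. Without N-LKO 3, 4 of the 6 members were still called, and Adamts2 and Mmp23 were not. Timp2, Timp3, Mmp2 and Adamtsl2 were called without any 1 of the 8 livers.

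Some markers of other cell types were also called. Of all 64 tested cell type markers 7 were called higher and 1 lower, against 0.823% and 0.218% of all genes tested. Of the 10 fibroblast and matrix markers 3 rose (Col1a1, Lum and Eln) and 1 fell (Postn), with a median log2 fold change of 0.89, and their summed level was 154 to 213 CPM in WT and 225 to 319 CPM in N-LKO livers. Lum, a small proteoglycan of fibroblasts, went from 7.50 ± 0.748 to 20.6 ± 5.54 CPM, while Dcn, the most abundant of the 10, went from 143 ± 18.9 to 193 ± 33.9 CPM and did not pass (adjusted p 0.185). Of the 8 stellate cell markers 0 were called, with summed levels of 98.6 to 161 and 113 to 165 CPM. Lrat, the retinol-storing enzyme of stellate cells, was at 15.8 ± 2.01 and 14.2 ± 4.75 CPM, and Pdgfrb, shared by stellate cells and fibroblasts, at 4.24 ± 1.04 and 8.71 ± 2.51 CPM (adjusted p 0.0688).

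Of the 5 tested cholangiocyte markers 2 rose (Epcam and Spp1), with summed levels of 36.0 to 61.9 CPM in WT and 72.7 to 155 CPM in N-LKO livers. Krt7 and Krt19, the defining keratins of bile ducts, were at 0.362 and 0.619 CPM in WT and 0.357 and 0.939 CPM in N-LKO livers. Of the lipid-associated macrophage markers Gpnmb rose (summed levels of the list 47.2 to 59.7 and 62.0 to 96.6 CPM). Of the mesothelial markers Wt1 rose (log2 fold change 1.75), while Upk3b had -0.37 and was not called. The mesothelial markers together summed to 3.58 to 4.80 CPM in WT and 5.22 to 6.18 CPM in N-LKO livers. No Kupffer cell, sinusoidal endothelial, neutrophil, smooth muscle, T and NK cell or erythroid marker was called. No marker found in the table was at 0 in every liver. The part of these cell types in the protease and inhibitor results was not tested.

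**Figure D4:**
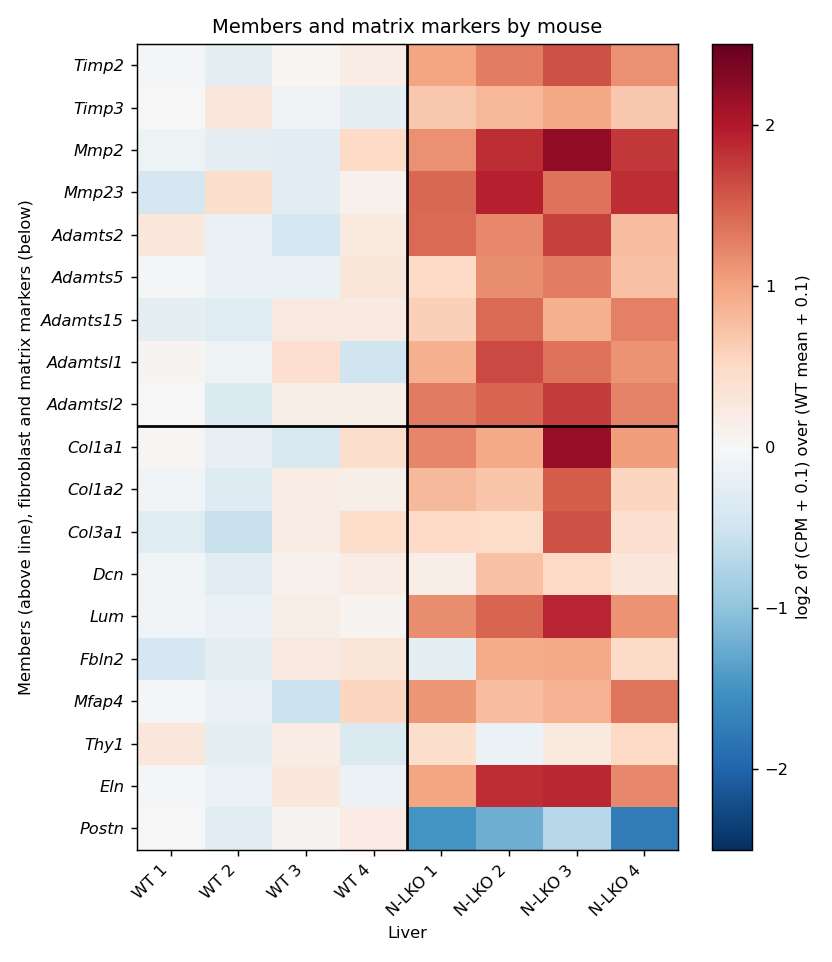
Each cell is the log2 ratio of a liver's CPM to the WT mean, with 0.1 CPM added to both, for the 9 tested members without overlap (above the line) and the 10 fibroblast and matrix markers (below). The members, Lum, Eln and Col1a1 are red in all 4 N-LKO livers, with the strongest red mostly in N-LKO 3, and Postn is blue.

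The wider system around these proteases was read from a list of 67 partner genes, of which 59 were in the table and 53 tested. Of these 2 rose and 0 fell, against 0.823% and 0.218% of all genes tested, and the median log2 fold change was 0.00. Thbs2, a matricellular protein that clears MMP2 from the tissue, went from 1.66 ± 0.453 to 5.62 ± 1.11 CPM (log2 fold change 1.74, SE 0.223, adjusted p 0.00483). Plat, the tissue-type plasminogen activator, went from 0.530 ± 0.188 to 2.23 ± 0.504 CPM (log2 fold change 2.07, SE 0.299, adjusted p 0.00900). Plat had 6, 12, 7 and 11 counts in WT and 34, 30, 45 and 30 in N-LKO livers, passed the filter through its N-LKO group, and was not tested where 10 counts were required in every liver. Neither gene overlapped between the genotypes. In all, 4 of the 53 tested partner genes lay above WT in every N-LKO liver, against 4.2% of all genes tested.

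The abundant liver-made partners did not pass the test. Plg, the plasma proenzyme of plasmin, was at 2023 ± 253 and 2054 ± 217 CPM, and Hpn, the hepatocyte membrane serine protease, at 122 ± 7.05 and 122 ± 10.1 CPM. Of the broad-range protease inhibitors of plasma, Mug1 had a log2 fold change of 0.33 (SE 0.145, adjusted p 0.378), Pzp of 0.00 (SE 0.116) and Mug2 of -0.13 (SE 0.117). Serpine2, an inhibitor of plasminogen activators and thrombin, had a log2 fold change of -0.36 (SE 0.269).

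Furin, Pcsk6 and Pcsk7, convertases that cut the propeptides of MMP14, ADAMs and ADAMTS proteases, had log2 fold changes of -0.09, -0.09 and 0.09. Of the ADAM10 and ADAM17 regulators, Tspan14 and Frmd8 had log2 fold changes of 0.13 and 0.15, and Rhbdf2, an iRhom that carries ADAM17 to the surface, had 0.52 (SE 0.179, adjusted p 0.238). Tspan17 had -1.27, the lowest log2 fold change of the 53 tested partner genes. Of the 7 tested regulators 0 were called. Of the shed ADAM substrates Sdc4, Sdc1 and Il6ra were the most abundant, with log2 fold changes of -0.23, 0.19 and -0.29, and 0 of 17 tested were called. Bsg, an inducer of MMPs, Ece1 and the procollagen C-proteinase Bmp1 had log2 fold changes of 0.10, 0.04 and -0.04. Of the lysosomal cathepsins, Ctsl, Ctsb and Ctsz had 0.13, -0.16 and -0.24, and Ctsz, at 116 ± 6.60 and 98.0 ± 1.77 CPM, lay below WT in every N-LKO liver without passing the test (adjusted p 0.147). In all, 2 of the 53 tested partner genes lay below WT in every N-LKO liver, near the share of 3.32% over all genes tested.

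**Figure D5:**
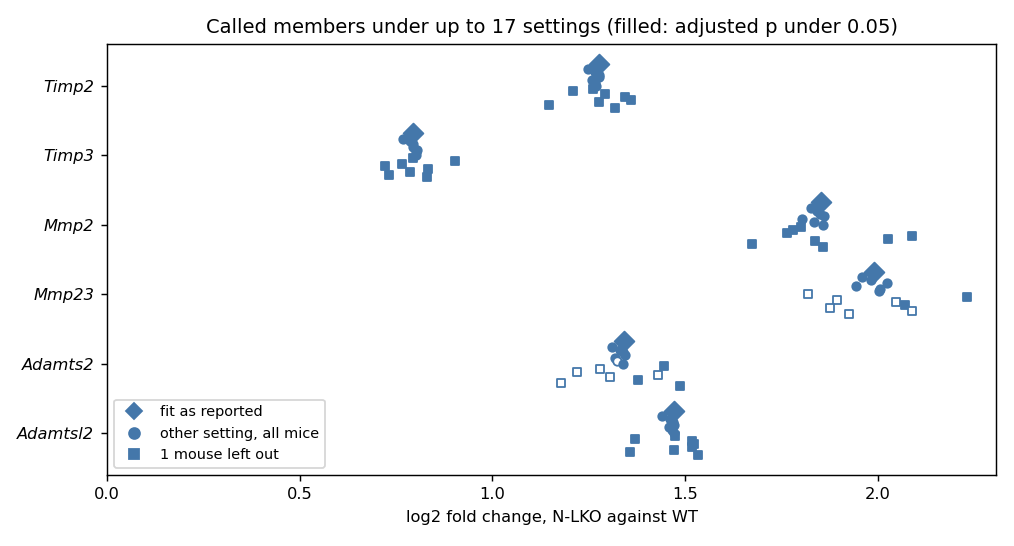
Each point is the log2 fold change of a called member in the reported fit (diamond), in another setting with all mice (circle) or with 1 mouse left out (square), filled where the adjusted p was under 0.05. All points lie above 0, and open points appear for Mmp23 and Adamts2, the former in 6 of the 8 fits with 1 mouse left out and the latter in 5 and with the replicate number as a block.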

How the data were processed

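Liver RNA from 8 mice on CD (4 per genotype) was sequenced by the authors after rRNA removal. The authors deposited expected counts per gene, estimated counts that need not be whole (52.2% of genes had decimals). Their notes name STAR, Partek and mm9, and the paper TopHat2 and cuffdiff. The coordinates in the table are those of GRCm38. The counter, the annotation and the strand setting are not given in the sources used here, so antisense overlaps could not be separated.

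Counts were rounded, filtered with filterByExpr (minimum count 10, minimum total 15), scaled by TMM and fitted with edgeR 4.0.16 in R 4.3.3 (glmQLFit, glmQLFTest, genotype as the only term, Benjamini-Hochberg over all 14214 genes tested). Standard errors were taken as log2 fold change over root F. CPM are TMM-scaled. Levels per kb divide CPM by the union of GENCODE M21 exons. The smallest chi-square per degree of freedom between libraries was 11.9, so none was a repeat. The script was tested on simulated data. Permutation tests on log2 CPM used a prior count of 2. P-values measure the spread between these mice.

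The members and lists were chosen with earlier results of these data known. Genes were named if called, if a Timp, if a tested Mmp, if among the 3 most abundant of a subfamily or partner list, or if without overlap at a mean of at least 1 CPM. Others named were chosen after their values were seen. Alternatives were DESeq2 1.42.0, scaling by RLE or by library totals, leaving out the filter, requiring 10 counts in every mouse, limma-voom (limma 3.58.1), the replicate or library number as a block, each mouse left out and a prior count of 0.5. Promoter windows are from RefSeq.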

Additional observations from a re-analysis of the deposited data

Results flagged for a closer look

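Of 50 groups of 4 livers looked at, 2 had a liver far from the other 3, where chance gives about 1 in 20 groups. In the WT group, the WT 1 liver had a Nus1 level of 6.36 log2 CPM against 6.49 to 6.50 in the other 3 livers. The difference between genotypes in Nus1 was called in all 8 fits with 1 mouse left out. For Mmp13, the WT 4 liver stood at -1.80 log2 CPM, from 3 counts, against -3.04 log2 CPM in the other 3 WT livers, which had 0 counts each. Mmp13 was not tested in the comparison, and its WT level rests on those 3 counts.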

How the results depend on the processing

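Timp2, Timp3, Mmp2 and Adamtsl2 were called under all 8 settings with all mice and in all 8 fits with 1 mouse left out. Adamts2 and Mmp23 kept their direction in every fit run, and lost the call in 5 and 6 of the 8 fits with 1 mouse left out. Mmp23 was not tested where 10 counts were required in every mouse. At this depth 24 members had too few counts to be tested.

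The members called numbered 6 under RLE scaling, library totals and limma-voom, 8 without a filter (adding Adamts5 and Mmp7), 5 with at least 10 counts in every mouse, 8 with DESeq2 (adding Adamts5 and Adamts15) and 4 to 7 with 1 mouse left out. All genes called numbered 98 (19 lower) with at least 10 counts in every mouse, 371 with DESeq2 (248 higher, 123 lower, 66.8% higher against 79.1%), and 71 (without WT 4) to 173 (without N-LKO 2) with 1 mouse left out, with 60 to 124 higher and 11 to 49 lower. The count was 83 without WT 2, 91 without WT 3 and 76 without N-LKO 3. The cause was not tested.

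By subfamily, the Mmp genes called were 1 with at least 10 counts in every mouse and 1 to 3 with 1 mouse left out. The Adamts genes called were 2 without a filter, 3 with DESeq2 and 0 to 1 with 1 mouse left out. Partner genes called were 1 with at least 10 counts and 4 with DESeq2. Cell type markers called were 5 with at least 10 counts, 5 with limma-voom and 2 to 7 with 1 mouse left out. Without a filter the medians were 0.33 for Mmp, 1.27 for Timp and 0.11 for Adamtsl, and the Adamtsl median was 0.62 with at least 10 counts. These changes in medians follow from which genes entered. With 1 mouse left out the medians ran from 0.94 to 1.10 for Timp, -0.01 to 0.13 for Adam and 1.31 to 1.53 for Adamtsl.

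Residuals of livers with the same replicate number correlated at 0.0625, -0.0853, 0.0396 and 0.0433. Those of livers sharing a library number correlated at -0.00920, 0.166, 0.0648 and 0.0767. No reference spread was computed for these correlations, so they cannot decide whether either number pairs the mice. With the replicate block 131 genes and 5 members were called (0 Adamts genes). With the library number block 113 genes and 7 members were called (2 Adamts genes, adding Adamts5), and 4 cell type markers. With the replicate block Adamts1 was at -0.00118 and Hpn at -0.000785, and with the library number block Hpn was at -0.000871.

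The genes that changed direction had not passed the test, and all but Il6ra (log2 fold change -0.29, SE 0.410) had log2 fold changes between -0.05 and 0.09. With library totals the log2 fold changes were -0.0098 for Adam10, -0.027 for Pzp, -0.013 for Plg and -0.032 for Hpn. Without a filter they were -0.0048 for Pzp and -0.0070 for Hpn, and with limma-voom -0.018 for Adamts1 and -0.0010 for Hpn. With 1 mouse left out they ran from -0.050 to 0.056 for Adam10, -0.096 to 0.012 for Adam17, -0.010 to 0.20 for Adam23, -0.26 to 0.23 for Adamts1, -0.10 to 0.0027 for Bmp1, -0.014 to 0.061 for Ece1, -0.039 to 0.058 for Hpn, -0.84 to 0.13 for Il6ra, -0.069 to 0.10 for Mmp14, -0.032 to 0.17 for Mmp15, -0.0019 to 0.17 for Pcsk7, -0.056 to 0.11 for Plg and -0.034 to 0.076 for Pzp.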
